A study of Mus musculus with 8 samples.

Results

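Gene expression was compared between male mouse livers labelled liver-specific Bcl6-deficient and male wild-type livers. The comparison takes in 4 of the 8 arrays of the series, chosen by their titles: replicates 3 and 4 of the male wild-type mice and replicates 3 and 4 of the male mice titled as Bcl-6 deficient in the liver, whose genotype label is knock out. All were C57BL6 mice of 10 to 11 weeks, and total RNA of whole liver was measured on 1-colour Agilent expression arrays. The 4 other arrays, 2 of female wild-type and 2 of female deficient livers of the same strain and age, entered the fit for its estimate of the spread and are set beside the males in the last comparison. The promoter driving the deletion, the deleted exons and the kinship of wild-type and deficient mice are not given in the sources used here. The series title names the question as the effect of Bcl6 on the sex difference of the liver.

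BCL6 is a zinc-finger transcription factor that represses its targets and is best known from B cells of the germinal centre. In liver it has been described as a repressor at sites that STAT5, the transcription factor activated by the growth hormone receptor, also binds. Growth hormone reaches the male liver in pulses and the female liver in a steadier flow, and this pattern sets much of the expression of sex-biased P450 enzymes, sulfotransferases, transporters and secreted proteins.

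A level of 0 below is the signal at the 75th percentile of an array, and each step of 1 is a doubling of signal. Differences are deficient minus wild type on the log2 scale with the standard error of limma's fit, n = 2 arrays per group. A gene was called when its p-value, adjusted by Benjamini-Hochberg over all 22834 genes tested, was under 0.05. A gene entered the test when both wild-type or both deficient male arrays read it well above background, and 14115 of those tested had a symbol. Where neither array of a group was well above background, "at least N-fold" sets the mean of the brighter group against a floor, per array the lowest signal still scored above background or, if that is higher, the reading of the dim probe. The 4 male arrays are called W3 and W4 (wild-type replicates 3 and 4) and D3 and D4 (deficient replicates 3 and 4).

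Of the 56605 probes of an array, 49.6% to 54.1% were well above background, no spot was saturated, and the male arrays of a group correlated at r = 0.992 (wild type) and 0.993 (deficient) across genes. With 2 arrays per group, their number limits the precision. Nothing in the labels says that replicates came from separate mice, so p-values reflect the spread among these samples alone, and that may be technical. Deficient samples lay in the inner columns of the slide and wild-type samples in the outer ones, so column and genotype cannot be told apart. The levels of the hepatocyte genes Alb (10.12 and 9.59 against 9.93 and 9.56) and Apoa1 (8.54 and 8.52 against 8.32 and 8.12) gave differences of -0.11 ± 0.18 and -0.31 ± 0.12 (adjusted p = 0.733 and 0.125). In whole liver, fewer cells of a type and less RNA per cell cannot be told apart.

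The targeted gene was read by 1 probe. Bcl6 was at 3.20 and 3.55 in wild-type and at 4.31 and 4.86 in deficient male livers, so the signal was not lower in the deficient group. The difference was 1.21 ± 0.58 (adjusted p = 0.201). It passed the threshold when the 4 male arrays were fitted alone (adjusted p = 0.00997) or without female wild-type replicate 3 or 4 (adjusted p = 0.0204 and 0.0205), and female wild-type livers were at 2.02 and 4.16. Whether the probe lies in the deleted part is not known here, and a probe outside it checks nothing. The genotype of each sample, and with it every direction below, therefore rests on the labels.

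Deficient and wild-type male livers differed in many genes. In all, 3295 genes (14.4% of those tested) were called, 1725 higher (7.55%) and 1570 lower (6.88%) in deficient livers. In either direction together, 6777 of the 22834 genes tested had an unadjusted p under 0.05. Of the called genes 2343 had a symbol, 1234 higher and 1109 lower. The groups did not overlap for any of the 3295, against 59.4% of all genes tested. The median difference was -0.05 over all genes, 1.15 over those called higher and -0.82 over those called lower. Large changes were more often increases: 1008 genes rose and 596 fell at least 2-fold (7.02% of genes tested in all), 203 and 103 at least 8-fold, and 69 and 12 at least 32-fold. These folds take readings below background as they stand, so the largest are uncertain in size. With the genes split into 3 equal bins by level, 12.18% of the lowest bin were called, with a median size of 1.60, and 15.8% of the highest bin, with a median size of 0.69. With 1 array left out fewer genes passed: 2012 without W3, 1883 without W4, 2117 without D3 and 1733 without D4.

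The largest decreases were in enzymes known to be higher in male than in female mouse liver. Elovl3, an elongase of very long chain fatty acids, was at 6.82 and 6.46 in wild-type and at -3.70 and -3.46 in deficient livers, a decrease by 10.22 ± 0.28 (adjusted p = 2.51e-07). Hsd3b5, a steroid dehydrogenase of male liver, was at 7.51 and 7.24 against -1.96 and -3.18. Both went from among the brighter genes of the array to the low end of the measured range. The P450 enzymes Cyp4a12a (6.14 and 6.24 against -2.54 and -0.38) and Cyp4a12b (6.73 and 6.82 against -2.07 and 0.01) hydroxylate fatty acids, and fell by 7.65 ± 0.79 and by 7.81 ± 0.98 (adjusted p = 0.00035 and 0.00105). Cyp2d9, a steroid 16-alpha-hydroxylase, was at 7.57 and 7.54 against 3.35 and 2.98 and so remained well expressed after a decrease by 4.39 ± 0.14 (adjusted p = 4.2e-07). The deficient replicates stood further apart than the wild-type ones for both Cyp4a12 genes and Hsd3b5, and the groups did not overlap for any gene of this paragraph.

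Other large decreases were in genes outside drug and lipid metabolism. Nat8, an acetyltransferase of the endoplasmic reticulum, was at 5.26 and 5.10 against -0.75 and -0.29 (decrease by 5.69 ± 0.31, adjusted p = 9.81e-06). Pax2, a developmental transcription factor, was at 5.45 and 5.03 against 0.60 and -0.61 (difference -5.24 ± 0.44, adjusted p = 0.000111), but the mean of its probes differed by -2.51 and another of its probes had the opposite sign, uncalled. Adrb3, the beta-3 adrenergic receptor, was at 1.07 and 1.61 against -3.79 and -3.32 (-4.90 ± 0.27). The terminal complement component C6 was at 3.98 and 3.66 against -0.41 and -0.04 (-4.04 ± 0.32), and the predicted gene Gm4956 at 4.67 and 4.48 against -0.48 and 0.12 (-4.75 ± 0.20). The olfactory receptor gene Olfr806 was at 0.71 and 0.63 against -3.57 and -3.63 (-4.27 ± 0.51). Clec2h, a C-type lectin, was at 2.94 and 2.80 against -2.68 and -0.41 (-4.42 ± 0.88, adjusted p = 0.0116), and its call ended without W3 (adjusted p = 0.0645), W4 (0.0616) or D3 (0.0641). With normexp background correction, which compresses low levels, Adrb3 differed by -2.60 and Olfr806 by -2.02.

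The largest increases measured above background on all 4 male arrays joined female-biased liver genes with genes of little liver expression in either sex. The female-biased P450 enzymes Cyp2b9 (-0.38 and 1.14 in wild-type, 6.98 and 6.76 in deficient livers) and Cyp2b10 (0.95 and 2.38 against 7.18 and 7.06) rose by 6.49 ± 0.38 and 5.45 ± 0.36 (adjusted p = 1.48e-05 and 2.69e-05). Acot3, a peroxisomal acyl-CoA thioesterase, was at -2.18 and -1.71 against 5.08 and 4.13 (6.55 ± 0.43, adjusted p = 2.52e-05). Hamp2, a gene related to the iron hormone hepcidin, was at 2.35 and 4.52 against 9.37 and 9.08 (5.79 ± 0.69, adjusted p = 0.000808). For Cyp2b9, Cyp2b10 and Hamp2 the wild-type replicates stood further apart than the deficient ones. Prlr, the prolactin receptor, was at 1.30 and 1.61 against 6.67 and 6.54 (5.15 ± 0.15, adjusted p = 3.5e-07). Mt2, a metallothionein that binds zinc and copper, was at 2.20 and 3.13 against 7.93 and 8.72 (5.66 ± 0.92, adjusted p = 0.0044, and 0.054 under a robust variance trend).

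Among genes at low levels in wild-type liver, Gpx3, the secreted glutathione peroxidase, was at -1.17 and -1.26 against 4.94 and 4.76 (6.07 ± 0.14, adjusted p = 7.61e-08). Dnah11, a dynein motor chain of cilia, was at -3.70 and -3.75 against 3.18 and 2.57 (6.60 ± 0.21, adjusted p = 4.63e-07). Ankrd2, an ankyrin repeat protein of muscle, was at -3.13 and -2.73 against 2.79 and 2.29 (5.47 ± 0.22). All 3 passed from below the 75th percentile of the array to well above it. The membrane protease gene Tmprss4 was at -3.22 and -2.16 against 2.56 and 2.86 (5.41 ± 0.29), the aldose reductase-like Akr1b7 at -3.48 and -3.46 against 1.70 and 1.60 (5.12 ± 0.18), and the lens crystallin Crybb3 at -2.05 and -3.25 against 1.91 and 2.68 (4.94 ± 0.51). With normexp correction the differences were smaller and kept their sign: Dnah11 4.09, Ankrd2 3.44, Tmprss4 3.57, Akr1b7 2.79 and Crybb3 3.28.

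**Figure D1:**
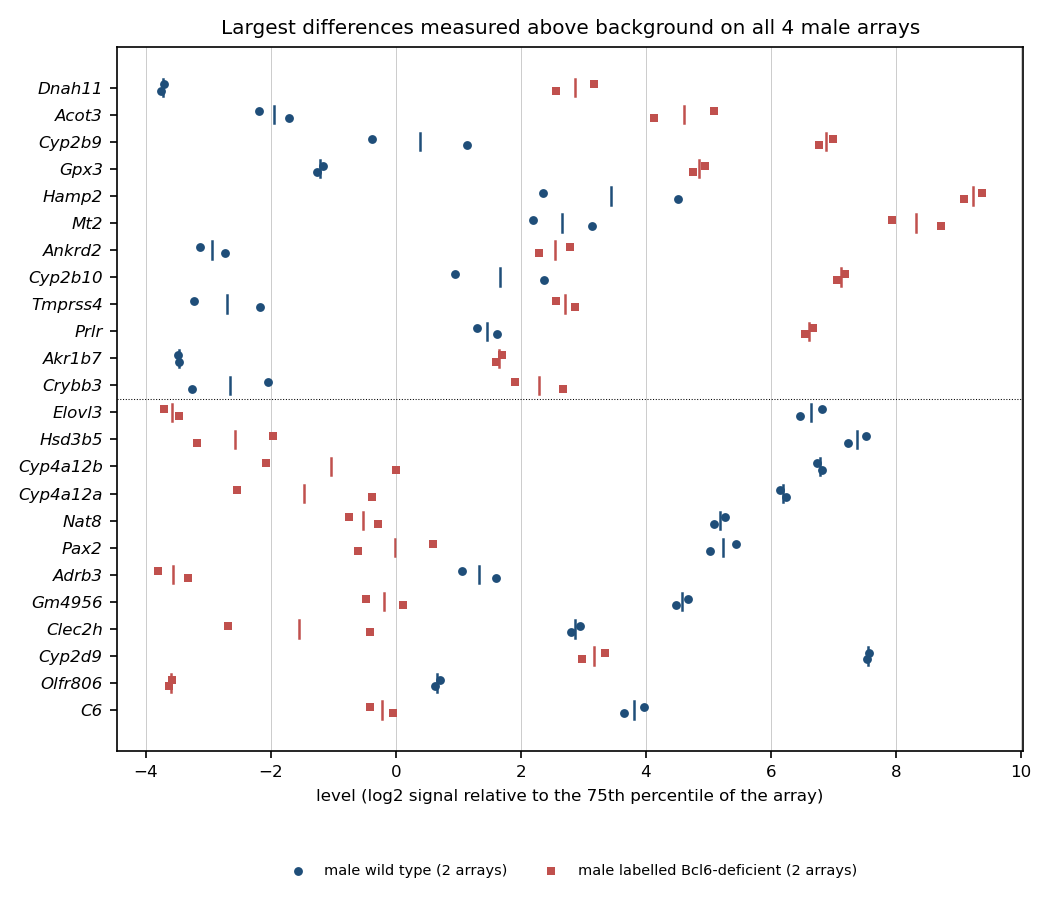
Levels of the 24 genes with the largest differences measured above background on all 4 male arrays (log2 relative to the 75th percentile, horizontal axis), 1 circle per wild-type and 1 square per deficient array, with vertical ticks at the group means. The 12 genes above the dotted line were higher in deficient livers, from Dnah11 (6.60) to Crybb3 (4.94), and the 12 below it lower, from Elovl3 (-10.22) to C6 (-4.04), and the groups do not overlap for any of the 24.

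A further 267 genes were called higher without being well above background on either wild-type array (594 such genes were tested), 52 of them at least 10-fold. The sulfotransferases of the Sult2a group, which add sulfate to hydroxysteroids and bile acids, led them. Sult2a1 was at -6.15 and -5.82 in wild-type and at 8.58 and 8.22 in deficient livers, at least 5207-fold higher (adjusted p = 0.000195). The bounds of Sult2a6, Sult2a2 and Sult2a4 were 2725-fold, 1810-fold and 1530-fold. A1bg, a plasma glycoprotein of the immunoglobulin superfamily, was at -6.09 and -5.74 against 7.04 and 6.88, at least 1920-fold higher (adjusted p = 5.39e-06). The P450 enzyme Cyp3a44 was at least 1004-fold higher. In deficient livers the 4 Sult2a genes and A1bg thus ranked among brightly expressed genes, with levels of 6.47 or more. Without 1 male array these bounds moved by less than 1.5 times. All 267 genes entered the test only through the deficient arrays, so the filter largely set the direction of their calls. Their number is therefore no result beside the 7.55% called higher over all genes. Their p-values rest on wild-type readings below background.

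The opposite group was smaller: 118 genes were called lower and were not well above background on either deficient array (217 such genes were tested), 4 of them at least 10-fold. These entered the test only through the wild-type arrays, so the filter likewise largely set their direction (6.88% of all genes were called lower). Ces4a, a carboxylesterase, was at 0.07 and -0.73 against -5.36 and -5.56, at least 13.6-fold lower (adjusted p = 0.000647). Olig1, a transcription factor of oligodendrocytes, was at -0.46 and -0.29 against -4.32 and -5.93, at least 13.2-fold lower. Capn8, a calpain protease, was at -0.52 and -0.89 against -6.42 and -6.25, at least 10.5-fold lower (adjusted p = 6.07e-05). These bounds are small beside those of the increases since the wild-type levels were themselves near the 75th percentile. Moxd1, a monooxygenase, was at 1.22 and -2.06 against -4.65 and -6.07, so its wild-type replicates differed by more than 3. Its bound of 12.8-fold was 4.12-fold without W3 and 39.96-fold without W4, and its call ended without D4 (adjusted p = 0.0714) or with normexp correction (0.0751). Gm15230, Atp12a, Mrgpre and Omd were at least 7.88-fold, 7.61-fold, 7.19-fold and 6.74-fold lower.

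Since STAT5 is described to bind the palindrome TTCNNNGAA, and BCL6 and STAT5 both its form TTCCTNGAA (reverse complement TTCNAGGAA, a subset of the palindrome), the 250 bases before the RefSeq start sites (GRCm38.p6) were searched. Such sites are described upstream of growth hormone responsive genes. Of 45 genes named for their size, bound, difference from females or as the target, 31 had an entry and 6 held the palindrome, which reads the same on both strands. Entries on 1 chromosome were not searched for these genes. Among the 6, Pax2, which was lower, held only the palindrome. Bcl6, which was not called, held the palindrome and also its form TTCCTNGAA. The windows of Pax2 and Bcl6 are not printed. The windows of 3 increased genes and 1 decreased gene are printed 5′ to 3′ on the gene's strand, with each match in capitals.
Prlr (chr15:10223756-10223844, plus strand, match at -110 to -102 from the start): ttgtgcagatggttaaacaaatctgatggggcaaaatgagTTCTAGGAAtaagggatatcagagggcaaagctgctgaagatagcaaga
A1bg (chr15:60921306-60921394, minus strand, match at -84 to -76 from the start): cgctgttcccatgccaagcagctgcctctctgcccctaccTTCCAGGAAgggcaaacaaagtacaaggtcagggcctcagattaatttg
Hamp2 (chr7:30924227-30924315, minus strand, match at -94 to -86 from the start): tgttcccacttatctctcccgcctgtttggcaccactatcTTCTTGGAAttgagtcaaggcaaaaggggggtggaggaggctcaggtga
Moxd1 (chr10:24223327-24223415, plus strand, match at -150 to -142 from the start): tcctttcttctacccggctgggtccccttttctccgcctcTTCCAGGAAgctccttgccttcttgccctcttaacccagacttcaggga
The windows of Prlr, A1bg and Moxd1 hold the narrower form and that of Hamp2 only the palindrome. Across genes the shares lay close together. Over whole entries, which run on a little past the start, the palindrome stood in 8.51% of the promoters of genes called higher (81 of 952), 9.37% of those called lower (83 of 886), 8.55% of all genes tested with an entry and 8.30% of all 32851 entries. The narrower form stood in 2.21% (21), 1.69% (15), 1.60% and 1.59%. A match is a description of the letters and not a binding site, and sites farther from the start were not searched.

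The genes long known as sex-biased in mouse liver shifted almost as blocks. Of 32 male-biased genes tested, 24 were lower and 1 was higher (median -3.29, against -0.05 over all genes). Of 52 female-biased genes tested, 42 were higher and 1 was lower (median 2.74). Over all genes 6.88% were lower and 7.55% higher. Both lists were written with earlier results of these data known, so their counts describe them and test nothing.

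Besides the genes above, the male-biased list lost the serpin pseudogene Serpina4-ps1 (4.41 and 4.47 against -2.98 and -4.11, above background on 1 deficient array, decrease by 7.99 ± 0.70) and the acetyltransferase Nat8f5 (3.64 and 3.33 against -4.03 and -3.55, above background on 1 deficient array, decrease by 7.27 ± 0.41). The complement regulator Susd4 was at 4.63 and 4.98 against 0.90 and 0.85 (-3.93 ± 0.15, adjusted p = 1.06e-06), and the terminal complement components C8b and C9 differed by -3.78 ± 0.40 and -3.55 ± 0.46. These secreted and membrane proteins of complement fell together with C6. Cyp7b1, an oxysterol hydroxylase, fell by 3.14 ± 0.42, Cyp2u1 by 2.13 ± 0.24 and the detoxifying transferase Gstp1 by 1.85 ± 0.13 (adjusted p = 0.00158, 0.000518 and 4.2e-05). The exception was Gna14, a G protein subunit, at 0.49 and 0.20 against 1.64 and 0.97 (0.96 ± 0.23, adjusted p = 0.0255), whose call ended without W3 (adjusted p = 0.0584), W4 (0.137) or D3 (0.118). Without 1 array 22 to 24 male-biased genes were lower.

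Among female-biased genes not yet named, Slc22a26 and Slc22a27, organic anion transporters, were at least 278-fold and 60.9-fold higher, and the sulfotransferase Sult3a1 at least 190-fold. Cux2, a transcription factor of female liver, was at -6.07 and -5.79 against 2.06 and 2.11, at least 65.5-fold higher (adjusted p = 3.19e-07). Cyp2b13 was at -5.54 and -4.68 against 2.14 and 1.83, at least 61.2-fold higher (adjusted p = 3.25e-06). Smaller increases were in Cyp17a1, a steroid hydroxylase and lyase (4.32 ± 0.20), the fatty acid transporter Cd36 (2.73 ± 0.20), the monooxygenase Fmo2 (2.45 ± 0.22), the glutathione transferase Gstt3 (2.30 ± 0.18) and Cyp2a4 (1.96 ± 0.11). Cyp2a4 and Cyp3a41a were already bright in wild-type males, at 7.25 and 7.29 and at 8.91 and 8.89, and rose to 9.34 and 9.12 and to 9.78 and 9.55. The adjusted p of Cyp3a41a was 0.00361, and 0.056 with no filter on background. The 1 member that fell was Cyp2c37, at 8.25 and 8.34 against 6.94 and 6.08 (-1.79 ± 0.25, adjusted p = 0.00181), which belongs to a subset of the Cyp2c genes that fell (below). Restricting the test to genes above background on all 4 male arrays left 25 female-biased genes higher, since the genes at or below background in wild type drop out. Near-identical copies may share probe signal in the Sult2a, Cyp2b, Cyp3a41, Cyp4a12, major urinary protein and kallikrein groups, which was not tested, so the level of each copy is uncertain.

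**Figure D2:**
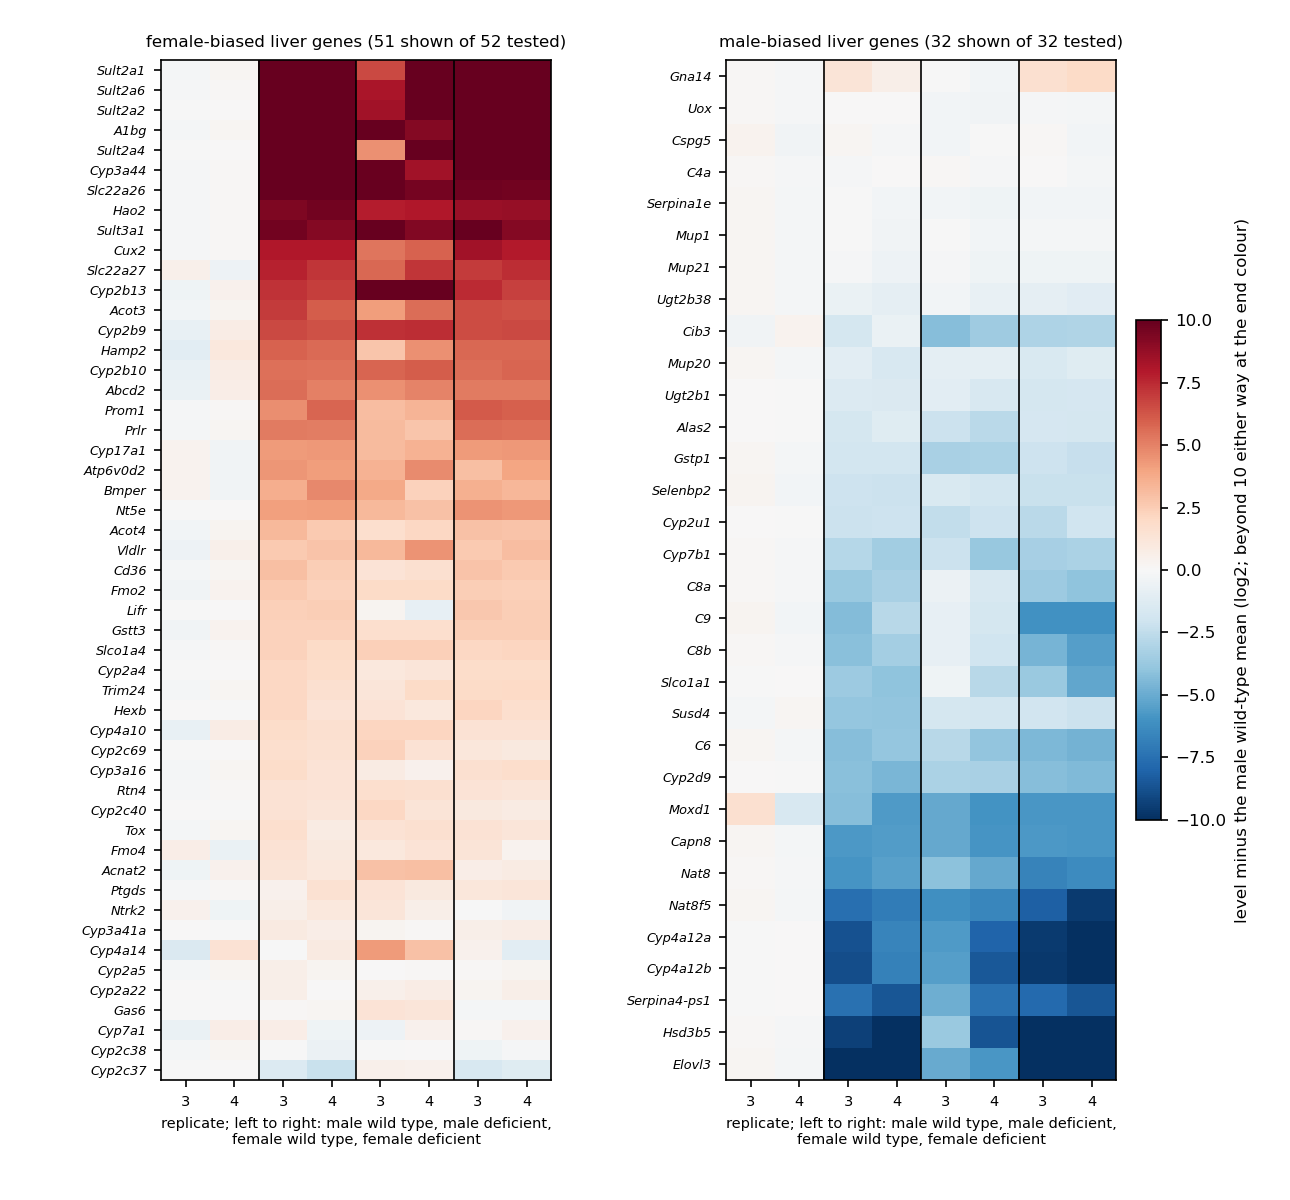
Level on each of the 8 arrays minus the mean of the male wild-type arrays (log2, colour; values beyond 10 either way have the end colour) for 51 of the 52 female-biased (left) and the 32 male-biased (right) genes tested, 1 line per gene and 1 column per array, in the order male wild type, male deficient, female wild type, female deficient. Of the genes tested, 42 female-biased ones were called higher and 24 male-biased ones lower in deficient males.

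The drug and steroid metabolising families changed in both directions and by subfamily. Of 40 P450 genes of family 2 tested, 10 were higher and 13 lower. The Cyp2b genes rose, while Cyp2g1 also rose (-0.89 and -1.39 against 3.53 and 3.48, 4.65 ± 0.40) and Cyp2d34 fell with Cyp2d9 (3.17 and 2.88 against -3.28 and -3.94, above background on 1 deficient array, decrease by 6.63 ± 0.23). The Cyp2c genes went both ways. Cyp2c50 (7.94 and 8.18 against 6.27 and 5.76), Cyp2c54 and Cyp2c37 fell by 2.05 ± 0.17, 1.79 ± 0.19 and 1.79 ± 0.25 (adjusted p = 0.000106, 0.00042 and 0.00181). Cyp2c68 (6.89 and 6.85 against 8.77 and 8.52) and Cyp2c69 (6.88 and 6.95 against 8.58 and 8.42), named after their values were seen, rose by 1.77 ± 0.19 and 1.59 ± 0.23 (adjusted p = 0.00045 and 0.00224). Of 8 family 3 genes 3 were higher (Cyp3a44, Cyp3a16 by 1.58 ± 0.21 and Cyp3a41a) (6 at an unadjusted p under 0.05), and 6 were higher after quantile normalization. Of 14 family 4 genes 5 were lower, among them Cyp4v3 by 1.33 ± 0.14 besides the Cyp4a12 pair, and 2 were higher. Without any one of W3, W4, D3 and D4 3 were lower, and without D3 or D4 none was higher. Cyp4a10, a target of PPARA, was at 2.91 and 4.46 against 5.51 and 5.29 (1.71 ± 0.39, adjusted p = 0.0203), but differed by 0.94 without W3 and its call ended without D3 (adjusted p = 0.0952) or D4 (0.0767).

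The conjugating enzymes split by class. Of 16 sulfotransferases tested, 12 were higher and 0 lower (1 at an unadjusted p under 0.05), and 5 were higher when only genes above background on all 4 male arrays were tested. Of 14 UDP-glucuronosyltransferases, which attach glucuronic acid, 9 were lower and 0 higher (2 at an unadjusted p under 0.05), with a median of -0.68. Ugt2b1 fell by 1.42 ± 0.16 (adjusted p = 0.000664) and Ugt3a1 by 0.86 ± 0.13. The changes of the glucuronosyltransferases were small, and 3 were lower without W3 and 2 without D4. Of 23 glutathione transferases 4 were higher and 1 lower. Gstt3 and the microsomal Mgst3 (1.75 and 1.95 against 3.77 and 3.35, 1.71 ± 0.16, adjusted p = 0.000215) rose with Gstm2, whereas Gstp1 (8.43 and 8.10 against 6.39 and 6.43) fell.

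Among the flavin monooxygenases Fmo1 rose by 0.80 ± 0.11 beside Fmo2, and Fmo5 was lower (7.08 and 6.97 against 5.60 and 6.11, -1.17 ± 0.17). Of 15 carboxylesterases, which cleave ester drugs and lipids, 7 were lower and 1 was higher, with Ces3b (-1.70 ± 0.18), Ces2e (-1.57 ± 0.22) and Ces2a (-1.41 ± 0.21) beside Ces4a. Their count was 4 without W3 or D4. Of 14 aldo-keto reductases 5 were higher, led by Akr1b7 and with Akr1b3, aldose reductase (0.89 ± 0.14), and 4 were lower. Without W3 or D4 3 were higher, and 1, 0, 2 and 0 were lower without W3, W4, D3 and D4 and 1 without either female deficient array. Of 20 aldehyde dehydrogenases 5 were higher, among them the mitochondrial Aldh1b1 (3.41 and 3.41 against 5.23 and 5.83, 2.12 ± 0.21) and Aldh1a7 (6.17 and 6.34 against 8.16 and 8.11, 1.87 ± 0.13), and 3 were higher without D3 and 2 with normexp correction. Aldh1a1 was lower (-0.55 ± 0.13, adjusted p = 0.0272), but not without W3, W4, D4 or either female deficient array (0.057 to 0.147). The acetyltransferase 8 family had 3 of 6 tested genes lower, with Nat8f6 at least 5.66-fold lower beside Nat8 and Nat8f5, and of 11 major urinary proteins, which carry pheromones, 5 were lower (2 without W3, 3 without D4). Mup6 was at 4.97 and 4.78 against 2.40 and 1.33 (-3.02 ± 0.32, adjusted p = 0.000385).

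Transporters also had called genes in both directions. Of 18 organic ion transporters of the Slc22 family, 4 were higher, and all 4 were not above background in wild-type males. These entered the test only through the deficient arrays, so the filter largely set their direction. Beside Slc22a26 and Slc22a27 they were Slc22a29, at least 14.6-fold, and the cation transporter Slc22a2, at least 33.8-fold. The latter bound was 21.98 without D3 and 51.98 without D4. Another 4 fell, among them Slc22a4 by 1.60 ± 0.16 and Slc22a30 by 1.01 ± 0.13, and 2 fell without W3. Of 7 anion transporters of the Slco family, 2 were higher and 3 lower. Slco1a4 was at 0.45 and 0.63 against 2.86 and 2.43 (2.11 ± 0.15, adjusted p = 4.52e-05), and Slco1a1 at 3.85 and 3.88 against 0.24 and -0.12 (-3.81 ± 0.68, adjusted p = 0.00695, and 0.0508 without D4). Without W3 or W4 1 gene was higher and 1 lower, and without D3 1 was higher. Of 36 ABC transporters 6 were higher and 7 lower. The peroxisomal Abcd2 was at -4.73 and -3.48 against 1.52 and 0.94, at least 31.9-fold higher, and Abca3 rose by 0.96 ± 0.10. The efflux pumps Abcc3 (5.31 and 5.55 against 3.77 and 3.14) and Abcg2 (6.01 and 5.96 against 5.06 and 4.49) fell by 1.98 ± 0.23 and 1.22 ± 0.18 (adjusted p = 0.000654 and 0.00261). The 7 were 4 without W4 or D4 and 3 without D3 or either female deficient array.

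Of 29 growth hormone signalling genes tested, 5 were higher and 0 lower (7 and 4 at an unadjusted p under 0.05), and 2 were lower without either female wild-type array. Besides Prlr, these were the growth hormone receptor Ghr (5.76 and 5.57 against 8.14 and 7.71, 2.26 ± 0.15, adjusted p = 2.48e-05), the growth factor binding protein Igfbp1 (4.81 and 5.38 against 7.82 and 7.77, 2.70 ± 0.32), the insulin receptor substrate Irs2 (0.76 ± 0.13) and Igfbp4 (0.82 ± 0.19, adjusted p = 0.0234). The Igfbp4 call ended without any one of the 4 male arrays (adjusted p 0.0873 to 0.102). Igf1 (7.60 and 7.34 against 7.58 and 7.56), the main growth factor made under growth hormone, and Stat5b (0.34 ± 0.13) were not called. Of the feedback inhibitors, Socs2 differed by 0.30 ± 0.40 and Cish by -1.78 ± 0.57 (adjusted p = 0.65 and 0.0718), with wild-type Cish levels of 3.97 and 2.87. Cish passed the threshold as lower when the 4 male arrays were fitted alone (limma, adjusted p = 0.0122) or with normexp correction (0.0464). It also passed with the replicate number as a block (0.0175), though the numbers are not known to pair the samples.

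Of 58 liver transcription factors 11 were higher and 7 lower. Next to Cux2, the estrogen receptor Esr1 was at 1.56 and 1.17 against 3.60 and 3.93 (2.40 ± 0.16, adjusted p = 2.76e-05), and the coregulator Trim24 and the GATA factor Gata6 rose by 1.82 ± 0.25 and 1.34 ± 0.12. Foxa1, a pioneer factor that opens liver enhancers, was at 3.50 and 3.22 against 0.82 and 0.35 (-2.77 ± 0.20, adjusted p = 4.21e-05), and Onecut1 (HNF6) at 4.48 and 4.33 against 3.43 and 3.09 (-1.15 ± 0.18). Smaller decreases were in Cebpa (-0.75 ± 0.10) and Nr0b2, the bile acid induced corepressor SHP (-0.72 ± 0.12). The count of 11 was 6 without W3 and 7 without D3. Of 21 genes described as BCL6 targets in lymphocytes 4 were higher (6 at an unadjusted p under 0.05) and 0 lower (1), with a median of 0.44: Bcl2l1, which blocks apoptosis (4.10 and 3.95 against 4.97 and 5.08, adjusted p = 0.00178), the chemokine receptors Ccr6 (at least 4.28-fold) and Ccr7 (2.05 ± 0.36), and Arid3a. The Ccr7 call ended without D4 (adjusted p = 0.0555) and that of Arid3a (1.28 ± 0.33) without W4 (0.171), D3 (0.16) or D4 (0.0703) and with normexp correction (0.0661), which gave Ccr7 a difference of 0.85, while 2 were higher without D4 and 7 without either female wild-type array.

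In lipid metabolism, single enzymes changed more than pathways. Of 32 genes of fatty acid and triglyceride synthesis 8 were higher and 2 lower (median -0.09). The lipase-like Pnpla3 was at least 10.1-fold higher, and the desaturases of polyunsaturated fatty acids Fads1 (3.83 and 4.17 against 6.12 and 6.23) and Fads2 (3.63 and 4.21 against 5.99 and 5.92) rose by 2.17 ± 0.13 and 2.03 ± 0.17 (adjusted p = 1.56e-05 and 0.000103). Thrsp, a regulator of lipogenesis, rose by 1.36 ± 0.13, while Fasn, the fatty acid synthase, was at 6.78 and 6.62 against 6.38 and 6.88 and was not called. Scd1, the stearoyl-CoA desaturase, was at 7.53 and 7.40 against 5.44 and 6.59 (-1.45 ± 0.30, adjusted p = 0.0146). Its deficient replicates differed by more than 1, it differed by -0.88 without D3, and its call ended without W3 (adjusted p = 0.0794) or W4 (0.0645). The other gene lower was the acyltransferase Agpat2 (-0.60 ± 0.16, adjusted p = 0.0415), whose call ended without W3, W4, D3 or either female deficient array (adjusted p 0.0635 to 0.175). Of 24 cholesterol synthesis genes 3 were higher, among them Mvd and Pmvk by 1.38 ± 0.25 and 0.64 ± 0.18, and 0 lower. The list leaned the other way, with a median of -0.22. At an unadjusted p under 0.05, 4 of its genes were higher and 6 lower. The count of 3 was smaller with each array left out in turn.

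Of 15 acyl-CoA thioesterases and acyltransferases 6 were higher and 1 lower. The peroxisomal Acot4 stood beside Acot3 at 0.12 and 0.59 against 3.62 and 2.96 (2.94 ± 0.24, adjusted p = 9.8e-05), and Acot11 rose by 1.23 ± 0.16. Of 51 genes of fatty acid oxidation and ketogenesis 9 were higher and 7 lower (median -0.07). The mitochondrial uncoupling proteins Ucp2 (-0.94 and -0.59 against 1.89 and 1.52) and Ucp3 (-0.50 and -0.09 against 2.37 and 1.86) rose by 2.47 ± 0.20 and 2.41 ± 0.21 (adjusted p = 7.85e-05 and 0.000118), and the pyruvate dehydrogenase kinase Pdk4 by 1.37 ± 0.20. Cpt1a, which admits fatty acids to mitochondria, differed by 0.09 ± 0.16, and the receptor Ppara by 0.10 ± 0.28. Acsm3, Acaa1b and Acox2 fell by 1.19 ± 0.13, 0.83 ± 0.12 and 0.74 ± 0.12. The 9 were 4 without W3 or D3 and 5 without D4, and the 7 were 4 without W3, W4 or D4.

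Of 40 genes of lipoproteins and lipid uptake 6 were higher and 2 lower. The apolipoproteins Apoa4 (3.73 and 3.64 against 6.39 and 6.07) and Apoc2 rose by 2.54 ± 0.28 and 1.34 ± 0.15 (adjusted p = 0.000491 and 0.000536), as did Tm6sf2, which loads lipoproteins with lipid (1.46 ± 0.13), and the receptor Vldlr (2.75 ± 0.41, or 1.47 with normexp correction). Hepatic lipase, Lipc, fell by 1.80 ± 0.19 (2.02 and 1.80 against 0.27 and -0.06, adjusted p = 0.000386), and Scarb1 by 0.55 ± 0.16, a call that ended without W3 (adjusted p = 0.0737), W4 (0.216), D3 (0.223) or any female array (0.0539 to 0.0554). Among 18 lipid droplet proteins 4 were lower. The droplet dehydrogenases Hsd17b11 and Hsd17b13 fell by 1.25 ± 0.14 and 1.17 ± 0.13 (adjusted p = 0.000609 and 0.000585), and 2 were lower without W3, W4, D4 or either female deficient array.

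Of 31 genes of bile acid synthesis and transport 14 were lower and 3 higher (median -0.44). Cyp39a1, which like Cyp7b1 hydroxylates oxysterols, was at 1.78 and 2.06 against 0.94 and 0.59 (-1.16 ± 0.15, adjusted p = 0.0014), and the importer Slco1b2 was at 7.95 and 7.79 against 7.13 and 6.36 (-1.12 ± 0.22, adjusted p = 0.0119). The latter differed by -0.74 without D4 and lost its call without W3 (adjusted p = 0.0721) or W4 (0.0505). Slc10a2, the ileal type bile acid transporter, fell by 1.52 ± 0.29 (adjusted p = 0.0633 without W4), and Abcc4, a basolateral exporter, rose by 1.65 ± 0.28, or 1.03 with normexp correction. Cyp7a1, the rate-limiting enzyme of the classical pathway, was at 1.96 and 3.33 against 3.31 and 2.20, so the groups overlapped (0.11 ± 0.49), and Cyp8b1 differed by -0.37 ± 0.21. Without W3 or W4 8 and 6 genes were lower.

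Steroid metabolism had the largest share of calls after the sex-biased lists among pathways of more than 20 genes. Of 27 genes tested 9 were higher and 12 lower. The list shares at least Sult2a1 with the female-biased list (highest difference 14.38 in both), so these lists are not separate. Serpina6, the carrier of glucocorticoids in plasma, was at 5.26 and 5.88 against 9.43 and 9.28 (3.79 ± 0.20, adjusted p = 8.05e-06), and the retinol or steroid dehydrogenases Rdh9 and Hsd17b6 rose by 1.61 ± 0.25 and 1.19 ± 0.17. The 3-beta-hydroxysteroid dehydrogenases went opposite ways. Hsd3b2 and Hsd3b3 fell with Hsd3b5, by 1.46 ± 0.16 and 0.94 ± 0.14, while Hsd3b1 rose by 3.27 ± 0.53, or by 1.28 over the mean of its probes (adjusted p = 0.088), of which 1 had the opposite sign, uncalled, and by 1.56 with normexp correction. The 12 were 7 without W3 or W4 and 6 without D4.

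Genes of glucose and amino acid metabolism changed in both directions. Of 48 genes of glucose metabolism 5 were higher and 8 lower (median -0.07). The gluconeogenic enzymes Pck1 and G6pc differed by -0.01 ± 0.18 and 0.34 ± 0.19, and neither was called. Pfkfb3, which makes an activator of glycolysis, was at 1.76 and 2.54 against -0.26 and -0.07 (-2.31 ± 0.30, adjusted p = 0.00137), the aldolase Aldoc fell by 1.59 ± 0.23 and the ketohexokinase Khk by 0.76 ± 0.12. The 5 were 2 without W3 or D4 and 3 without W4, and the 8 were 4 without W3 or W4 and 3 without D4. Of 57 genes of amino acid breakdown 7 were higher and 7 lower. Mat1a, which makes S-adenosylmethionine, Agxt and Tat, the tyrosine aminotransferase, rose by 1.26 ± 0.13, 1.19 ± 0.14 and 1.05 ± 0.14, and Aadat of the kynurenine pathway and Csad of taurine synthesis fell by 1.51 ± 0.12 and 1.36 ± 0.16. The 7 higher were 3 without W3 and 4 without D4 or either female deficient array, and the 7 lower were 4 without D3. Of 15 urea cycle genes 2 were lower, Glul (glutamine synthetase, -0.78 ± 0.20) and Slc25a13 (-0.47 ± 0.13), and neither without W3 or W4 and 1 without D3, D4 or either female deficient array.

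The stress response lists did not share a direction. At an unadjusted p under 0.05, 0 of 32 genes of the unfolded protein response were higher and 10 lower (median -0.35). Of 20 p53 targets 8 were higher and 0 lower at that level (median 0.37). Over all 22834 genes tested, 6777 were at that level in either direction, so these counts describe the lists and test nothing. Of 34 targets of NRF2, the regulator of antioxidant genes, 8 were higher and 7 lower. After Gpx3, the quinone reductase Nqo1 rose by 1.91 ± 0.18 (adjusted p = 0.0002) and the haem oxygenase Hmox1 was at 2.61 and 2.90 against 3.85 and 4.17 (1.26 ± 0.15), while the aldehyde oxidase Aox1 and the epoxide hydrolase Ephx1 fell by 1.15 ± 0.13 and 0.90 ± 0.10. The 7 were 4 without W3, W4 or D3 and 3 without D4. Of 26 genes of the amino acid stress response 5 were higher, with the glycine transporter Slc6a9 at 4.43 and 4.40 against 6.85 and 6.60 (2.31 ± 0.18), and 3 without W3 or D3. Of 32 genes of the unfolded protein response 3 were lower (5 without D3): the small heat shock protein Hspb1 was at 5.02 and 5.22 against 2.97 and 2.15 (-2.56 ± 0.33, adjusted p = 0.00131), with Derl3 at -2.11 ± 0.29 and Ero1b at -0.90 ± 0.12. Of 20 p53 targets 4 were higher, led by the kinase Plk2 (1.97 ± 0.25), but Cdkn1a and Mdm2 differed by 0.85 ± 0.58 and -0.21 ± 0.10 (adjusted p = 0.368 and 0.21).

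Metal handling held some of the largest changes. Mt1 rose beside Mt2, from 4.01 and 4.59 to 8.64 and 8.78 (4.41 ± 0.21, adjusted p = 3.72e-06). The copper exporter Atp7b was at -0.03 and -0.12 against 2.57 and 2.31 (2.51 ± 0.16, adjusted p = 1.96e-05), and ceruloplasmin, Cp, the copper oxidase of plasma, rose by 1.58 ± 0.14, or by 0.89 over the mean of its probes. In all 4 of 13 such genes were higher and 1 was lower, the metal-sensing factor Mtf1 (-0.56 ± 0.13, adjusted p = 0.0199, but 0.113 and 0.119 without W4 and D4). Of 22 iron genes 4 were higher and 2 lower (1 lower without W4 or D4). Hamp, the hepcidin gene itself, was at 7.48 and 7.06 against 7.69 and 7.54 (0.35 ± 0.18, adjusted p = 0.234), unlike Hamp2. Id1, a target of the BMP signal that sets hepcidin, was at 0.06 and 0.38 against 4.38 and 3.63 (3.78 ± 0.22, adjusted p = 1.35e-05), and Alas2, the erythroid enzyme of haem synthesis, fell by 1.45 ± 0.21, the 1 lower gene of the erythroid markers given below.

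Plasma proteins were split by system. Of 33 complement genes 9 were lower and 3 higher, the largest decreases being in C6, Susd4, C8b and C9 above. Complement factor D, Cfd, was at least 3.19-fold lower, and the lectin Mbl2 rose by 0.80 ± 0.11, one of 3 higher genes that were 1 without W3, W4 or D4. Of 32 coagulation genes 7 were higher and 2 lower. Von Willebrand factor, Vwf, was at 1.09 and 1.39 against 3.05 and 3.84 (2.21 ± 0.29, adjusted p = 0.00142), and factor VII, F7, at 3.71 and 3.77 against 5.81 and 5.72 (2.03 ± 0.13, adjusted p = 1.8e-05), with F10 and F5 at 0.76 ± 0.10 and 0.70 ± 0.11. No coagulation gene was lower without W3, W4 or D4 and 1 without D3, and 11 were higher after quantile normalization. Of 32 acute phase genes 8 were higher, but without W3 or W4 4 were higher, without D4 3 and without either female deficient array 5. The 1 lower gene was Saa4, a constitutive serum amyloid A (-0.90 ± 0.15, adjusted p = 0.0051).

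Of 36 liver-secreted hormones and growth factors 7 were higher and 4 lower. Inhbb, the subunit of activin B, was at -1.73 and -1.08 against 3.45 and 2.82 (4.53 ± 0.26, adjusted p = 1.2e-05), and Fgf11 at -2.93 and -1.95 against 2.36 and 2.04 (4.64 ± 0.34, or 3.05 with normexp correction). Both genes passed from under to well over the 75th percentile of the array. Enho, the gene of adropin, rose by 1.26 ± 0.10 (adjusted p = 7.76e-05). Transforming growth factor alpha, Tgfa, was at least 2.99-fold lower (adjusted p = 0.056 with normexp correction), and Inhba fell by 0.89 ± 0.16. The 4 were 2 without W3, W4 or D4.

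Genes induced by interferon, the signal of antiviral defence, leaned upward: of 44 tested 16 were higher (20 at an unadjusted p under 0.05) and 0 lower (1), with a median of 0.42. The guanylate binding proteins Gbp6 (-0.44 and -0.23 against 1.15 and 1.42) and Gbp3 (-0.05 and -0.24 against 1.22 and 1.69) rose by 1.62 ± 0.15 and 1.61 ± 0.17 (adjusted p = 0.000221 and 0.000388), and the nucleic acid sensor Zbp1 by 1.51 ± 0.18. The count rested on single arrays, with 4 without W3, 8 without W4 and 3 without D4, and it was 9 with normexp correction, no filter or no intensity trend. Of 27 antigen presentation genes 2 were higher, Psmb8 and Psmb9 of the immunoproteasome (0.56 ± 0.13 and 0.46 ± 0.12), and neither without W3, W4 or D4, 1 without either female deficient and 4 without either female wild-type array. Of 30 chemokines and cytokines 4 were higher and 2 lower, with Ccl9 at 4.57 and 4.75 against 6.21 and 6.21 (1.56 ± 0.12, adjusted p = 5.56e-05) and Tnf at 0.47 and -0.80 against -2.76 and -2.39 (-2.41 ± 0.38, or -1.27 with normexp correction). One was higher without W3 or D4.

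Markers of other cell types stood beside these genes at the following levels. The summed signal of 16 T and natural killer cell genes (log2 of the sum) was 4.89 and 4.81 in wild-type and 5.99 and 6.15 in deficient livers, with 3 called higher, led by the kinase Zap70 (4.08 and 4.08 against 5.74 and 5.86, 1.72 ± 0.14), and 1, 5, 6 and 1 without W3, W4, D3 and D4. The T cell receptor chain Cd3e did not share this and was at 0.01 and -0.06 against -0.17 and 0.17. Of 8 B and plasma cell genes 4 were called higher (summed 1.12 and 1.30 against 2.19 and 2.18), and 2, 2, 0 and 1 without W3, W4, D3 and D4. The pan-leukocyte Ptprc differed by 0.63 ± 0.24 (adjusted p = 0.115). Of 23 marker genes of Kupffer cells and other macrophages, 2 were called higher (summed 7.64 and 7.93 against 7.84 and 8.36, so the groups overlapped), with Cx3cr1 at 1.97 ± 0.19 (0.88 with normexp correction), Clec4f at 0.03 ± 0.16 and Adgre1 at 0.45 ± 0.22, and 1 was higher without W3, W4 or D4, 5 without D3 and 4 without either female wild-type array. Of 8 neutrophil genes 2 were higher, S100a8 and S100a9 by 1.05 ± 0.19 and 1.02 ± 0.16, and the summed levels overlapped (7.09 and 6.93 against 6.94 and 6.89), and 1 was higher without D4.

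Of 20 endothelial genes 5 were higher (summed 7.45 and 7.62 against 7.94 and 7.94), with Lyve1 of the sinusoids at 1.12 ± 0.16 beside Vwf, and of 19 stellate cell and fibroblast genes 2 were higher (summed 7.68 and 7.58 against 7.92 and 7.99), with Colec11 at 0.74 ± 0.11. The endothelial count was 2 without W3 or D4 and 3 without W4, D3 or either female deficient array, and the stellate count 1 without W3, W4 or D4 and 7 without D3. The cholangiocyte markers Sox9 and Krt19 differed by -2.03 ± 0.32 (-0.68 with normexp correction) and -0.66 ± 0.27, only the former called, and 7 of 13 such markers on the array were not tested for want of signal. Of 15 hepatocyte genes 2 were higher (summed 13.23 and 12.88 against 13.10 and 12.97).

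Of 10 erythroid genes 3 were higher and 1 lower (median 0.59, summed 8.57 and 9.15 against 9.17 and 9.51). The globin gene Hbb-b2 and the erythropoietin receptor Epor rose by 0.65 ± 0.12 and 0.70 ± 0.13, and 1 gene was higher without W3 or D4 and 6 without W4. The call of Hbb-b2 ended without W3 or D4 (adjusted p = 0.0613 and 0.0684). Of 6 adipocyte genes tested, with 3 more below the filter, 3 were lower (summed 8.90 and 8.69 against 8.16 and 7.66), Cfd, the carbonic anhydrase Car3 (8.87 and 8.65 against 8.10 and 7.58, -0.92 ± 0.21, adjusted p = 0.0203) and the lipid regulator Pparg (-0.58 ± 0.15, adjusted p = 0.0396). Only 1 of the 3 was lower without W3, W4 or D4, and the fat cell markers Fabp4 and Lep differed by 0.20 ± 0.16 and -0.17 ± 0.16. Of 13 muscle genes 4 were tested and 1, Ankrd2, was higher (summed -0.69 and -0.56 against 2.96 and 2.48). How far the share of other cells takes part in the immune, endothelial, matrix, complement factor D, lipid droplet and muscle gene results was not tested.

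Of 38 cell cycle genes 7 were higher (16 at an unadjusted p under 0.05) and 0 lower (1), with a median of 0.63. The proliferation marker Mki67 was at -1.18 and -1.27 against 0.84 and 1.14 (2.22 ± 0.20, adjusted p = 0.000169), and 3 of the list were called without W3, W4 or D3, 1 without D4 and 14 with the 4 male arrays fitted alone. Of 43 genes of the extracellular matrix and fibrosis 8 were higher and 3 lower (median 0.49). The membrane metalloprotease Mmp14 rose by 1.62 ± 0.25, or 0.85 with normexp correction, and the fibril collagen gene Col27a1 (-0.20 and -0.26 against -3.06 and -3.91) and the laminin chain Lama3 (-0.61 and -0.51 against -4.26 and -3.90, above background on 1 deficient array) fell by 3.26 ± 0.30 and 3.51 ± 0.30. With normexp correction these 2 differed by -1.47 and -1.38. The 8 were 4 without W4, 14 without D3 and 1 without D4.

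Zonation markers of the liver lobule did not shift as a whole. Of 34 pericentral genes 8 were lower and 3 higher (median -0.04), and of 33 periportal genes 6 were higher and 3 lower (median 0.04). The vasopressin receptor Avpr1a fell most among the pericentral genes (4.05 and 3.84 against 1.22 and 0.89, -2.89 ± 0.24, adjusted p = 9.04e-05), while the pericentral glutamate transporter Slc1a2 rose (3.62 and 3.72 against 5.82 and 5.33, 1.91 ± 0.15). The 8 were 5 without W3, W4 or D4, the 3 were 1 without D3, and 5 periportal genes were lower without D4. Of 18 clock genes 3 were higher, and 1 without W3 or D4, the largest increase being that of Per1 at 0.45 and 1.41 against 2.17 and 2.73 (1.52 ± 0.32, adjusted p = 0.0144, and 0.0693 and 0.101 without W3 and D4). The 1 lower clock gene was Hlf (-0.76 ± 0.16, adjusted p = 0.0165), whose call ended without W3, W4 or D4 (0.0588 to 0.107), while 4 were lower without either female wild-type array or with the 4 male arrays fitted alone.

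Outside known liver pathways, most of the tissue kallikreins tested rose together, while 15 of the 27 on the array were below the filter. Near-identical copies may share probe signal, which was not tested, so the members are not known to be separate measures. In females 8 were also called higher (median 4.52). These serine proteases are known from salivary gland and kidney, and 8 of 12 tested were higher and 0 lower (none at an unadjusted p under 0.05), with a median of 4.38, and the count was 8 without any 1 array. Klk1b22 was at -1.01 and -1.26 against 3.76 and 3.67 (4.85 ± 0.15, adjusted p = 3.84e-07), and Klk1b3, Klk1b4, Klk1b24 and Klk1b8 differed by 4.50 to 4.68. Of 20 imprinted genes, expressed from 1 parental copy, 4 were higher and 3 lower. Peg3 was at -3.80 and -3.82 against 1.27 and 0.79 (4.83 ± 0.29, above background on 1 wild-type array, or 2.29 with normexp correction), Cdkn1c rose by 1.71 ± 0.13, and the noncoding Meg3 was at 0.02 and 0.15 against -3.32 and -3.02 (-3.26 ± 0.32, or -1.51 with normexp correction). Of 4 axonemal dynein genes tested 2 were higher and 1 lower. Dnaic1 rose beside Dnah11 (0.31 and -0.04 against 1.97 and 2.24, 1.97 ± 0.16, adjusted p = 9.09e-05). Dnah6, above background on 3 of the 4 male arrays, fell by 1.81 ± 0.45 (adjusted p = 0.0288), a call that ended without any one of W3, W4, D3 and D4 (0.0531 to 0.16). Cela3b, a pancreatic elastase, was at least 11.6-fold higher (7.52-fold without D3 and 17.8-fold without D4), and Amy2a5, a pancreatic amylase, rose by 1.32 ± 0.17, or 0.88 over the mean of its probes, while Cela1 fell by 1.51 ± 0.26. Of 27 markers of fetal liver and liver tumours 7 were higher and 5 lower (3 without W4), with Akr1b7 and Prom1 (at least 10.2-fold) among the former, a bound of 6.72 without D4 and 15.45 without D3, and Sox9 and Afp (-1.15 ± 0.19, or -0.52 with normexp correction) among the latter.

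Of the house-keeping families, the ribosomal protein and proteasome genes held few called genes. Of the 46 NADH dehydrogenase subunits 0 were higher and 11 lower at an unadjusted p under 0.05. For the 15 cytochrome c oxidase subunits these counts were 1 and 8 (median -0.26). Over all 22834 genes tested, 6777 were at that level in either direction, so these counts describe the families and test nothing. Of 73 cytosolic ribosomal protein genes limma called 0 (2 at an unadjusted p under 0.05), and 2 of 39 proteasome subunits were higher, neither of them without any one of W3, W4, D3 and D4 and 1 without either female deficient array. Of 46 NADH dehydrogenase subunits 4 were lower (median -0.17), with Ndufs7 at -0.69 ± 0.09, and 1 without W3 or W4 and 2 without D4. Of 15 cytochrome c oxidase subunits 3 were lower, none of them without W3, W4 or D3 and 1 without D4 or either female deficient array, and 1, Cox8b, a form of heart and muscle, was higher (-3.52 and -4.38 against 0.52 and -0.95, above background on 1 wild-type array, 3.74 ± 0.57, or 1.42 with normexp correction). Of 1074 olfactory receptor genes on the array 86 were tested, of which 6 were lower, led by Olfr806, and 2 higher (median 0.01), and 4 were lower without W3, W4 or D4.

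**Figure D3:**
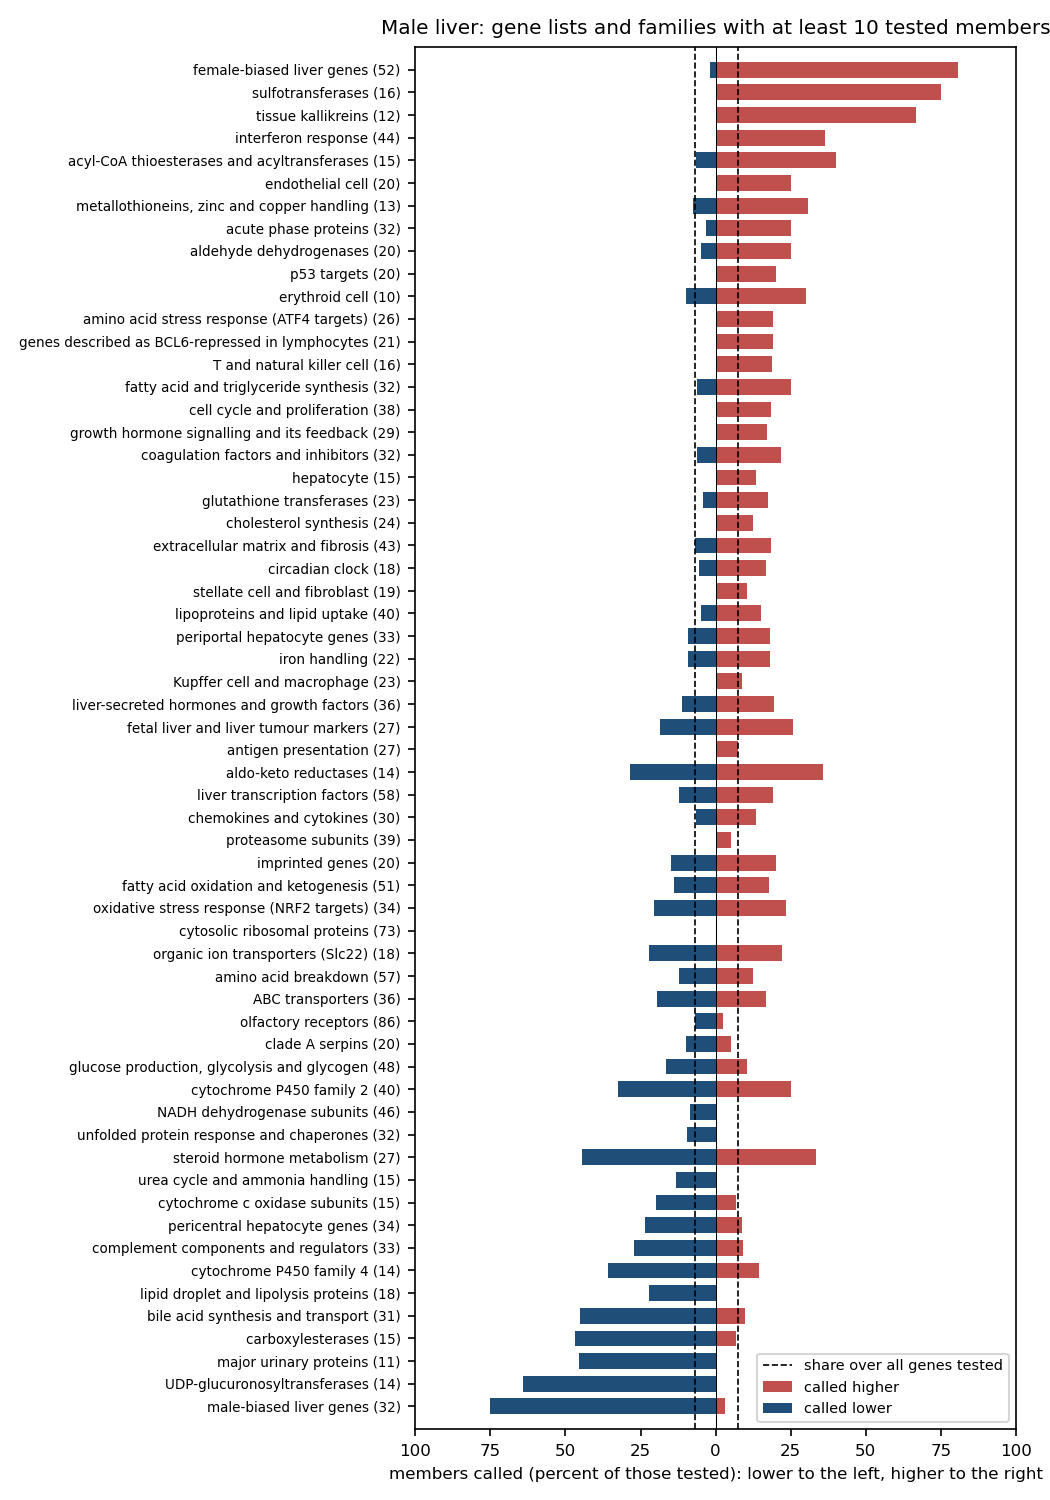
Share of the tested members of each list or family that were called higher (red, to the right) and lower (blue, to the left) in deficient male livers, for lists with at least 10 tested members (number in brackets), ordered by the difference of the shares. The dashed lines mark the shares over all genes tested (7.55% higher, 6.88% lower). Female-biased genes (42 of 52), sulfotransferases (12 of 16) and kallikreins (8 of 12) stand at the top, and glucuronosyltransferases (9 of 14) and male-biased genes (24 of 32) at the bottom.

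The female arrays, which share no sample with the males, give the same contrast in the other sex. They lay on the same slide, again with deficient samples in the inner columns, so column and genotype cannot be told apart here either. Of the genes tested, 1880 (8.23%) were called in females, 992 higher and 888 lower in deficient livers. Of the genes called in males 761 were also called higher and 513 also called lower in females, 20 were called in opposite directions, and 88.9% had the same sign in females (66.9% of all genes tested). Across the 3295 genes, which are not independent replicates, the differences of the sexes correlated at r = 0.781. Dnah11 (6.60 in males, 6.59 in females), Gpx3 (6.07 and 6.95) and Klk1b22 (4.85 and 4.77) had close differences in both. C9 (-3.55 and -4.71), C8b (-3.78 and -3.65) and Avpr1a (-2.89 and -2.93) fell in both.

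The difference between the male and the female effect was called for 173 genes (0.758%), 152 of which were also called in males, and in 126 of the 173 the male effect was above the female one. Cyp2b13 rose in males from below background to levels of 2.14 and 1.83 and fell in females from 6.10 and 6.75 to 2.33 and 1.74, so that all 4 deficient livers were close. Gstp1 fell in males (-1.85) and rose in females (0.98), with an adjusted p of the difference of 0.000255, and Onecut1 did the same (-1.15 and 1.25, adjusted p = 0.005). Of the interferon response genes 16 were higher in males and 12 were lower in females, with a female median of -0.47 and 7 differences called, Gbp3 (1.61 and -0.82, adjusted p of the difference 0.00272) among them. The count of 173 was 98 without W3, 105 without D4, 80 without female deficient replicate 3 and 76 without female deficient replicate 4.

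**Figure D4:**
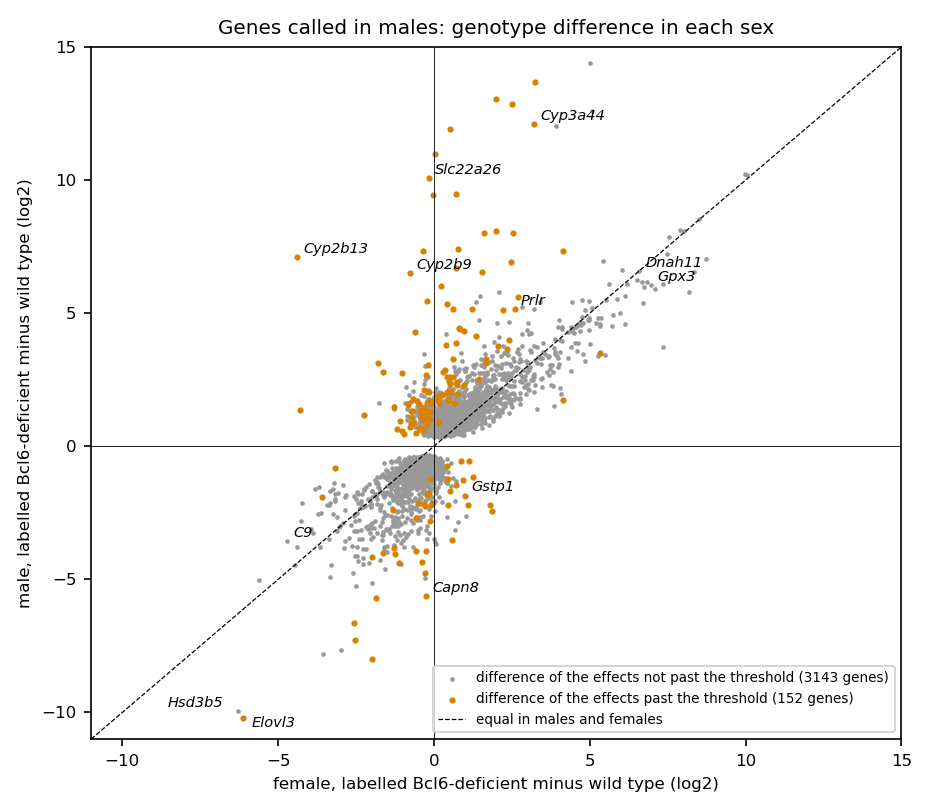
Difference between deficient and wild-type livers in males (log2, vertical axis) against the same difference in females (log2, horizontal axis) for the 3295 genes called in males, with the line of equal differences dashed. Genes near the line, such as Dnah11 and Gpx3, had close differences in both sexes, and the 152 genes whose difference between the sexes passed the threshold (orange) include Cyp2b13 far above the line and Capn8 below it.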

How the data were processed

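Total RNA of whole liver was labelled with Cy3 (0.1 ug) and hybridised to 1-colour Agilent arrays, all 8 on 1 slide with 1 scan time. Per the file headers, spot intensities were background-subtracted by Feature Extraction 11.5.1.1, while the submitters' processing notes name 9.1.3.1. The authors deposited log2 values, which equalled the log2 of those intensities, averaged per probe, minus 1 constant per array, with no centring per gene. Control probes were left out, and 32994 probes were named through their RefSeq accession (GRCm38.p6 table). The brightest probe stood for its gene. A probe passed if at least 50% of its spots were well above background on both arrays of a male group. Levels were fitted with limma 3.58.1 (R 4.3.3) in a 4-group model of all 8 arrays with an intensity trend (4 residual and a mean of 4.67 prior degrees of freedom), and p-values were Benjamini-Hochberg adjusted over all 22834 genes. The fit was tested on simulated data.

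Named genes were the 12 largest differences per direction above background on all 4 male arrays, the 8 largest bounds, the 5 largest differences from females, Bcl6, and up to 5 called members per direction of each of 72 lists. Another 24 members that did not pass were added by hand. Results of some genes are not reported here. The members and lists were chosen with earlier results of these data known. Alternatives covered background correction, normalization, filters, probe averaging, the variance trend, the arrays fitted and each array left out. Replicate numbers recur across groups and equal the slide row. Deviations of arrays of the same number correlated at r = 0.117 between the male groups, 0.345 between the female groups and -0.00167 to 0.0885 across the sexes. With only 2 numbers and no label that says what they share, they were not taken as pairs.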

Additional observations from a re-analysis of the deposited data

Results flagged for a closer look

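For 19 of the genes named for their size, bound or difference from females, the male and the female genotype effect differed in the same limma fit (Benjamini-Hochberg adjusted p under 0.05 over all genes). Values are the male minus the female difference on the log2 scale, and for genes not above background in a group they rest in part on readings below background. Positive values, the male effect above the female one, were found for Cyp2b13 (11.49), Sult2a2 (11.05), Sult2a6 (10.43), A1bg (10.36), Cyp3a44 (8.90), Cyp2b9 (7.26), Cyp2b10 (5.69), Acot3 (4.99), Akr1b7 (2.89) and Prlr (2.55). The smallest adjusted p was that of Cyp2b13 (1.18e-05) and the largest that of Sult2a6 (0.0196). Negative values were found for Serpina4-ps1 (-5.99), Capn8 (-5.38), Nat8f5 (-4.74), Gm4956 (-4.45), Tff3 (-4.27), Elovl3 (-4.10), Nat8 (-3.83), Cyp2d9 (-3.28) and C6 (-2.78), with adjusted p from 0.000154 (Cyp2d9) to 0.0378 (Tff3 and Serpina4-ps1). Elovl3 fell in both sexes, by 10.22 in males and by 6.12 in females. With 2 arrays per group, no single array could be tested as standing apart from its group.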

How the results depend on the processing

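Of the 3295 genes called in males, the count was 2183 with no filter on background and 1604 when a change of at least 2-fold was also required, and between 2315 (normexp) and 3371 (mean of a gene's probes) under the other alternatives apart from the replicate block. With 1 array left out it ran from 1733 to 3502. The 173 differences between the sexes became 72 with no filter and 104 with no intensity trend, and ran from 76 to 191 with 1 array left out. With the replicate number as a block 3798 and 251 genes passed and Bcl6 had an adjusted p of 0.0638 (limma), but the numbers are not known to pair the samples. The Bcl6 difference of 1.21 passed the threshold with the 4 male arrays fitted alone (1.21, adjusted p = 0.00997), and ran from 0.93 to 1.49 with 1 array left out. Under the alternatives run, no named gene called in males changed sign, while in 28 cases an uncalled difference did. Of 360 named genes called, 263 lost their call under no alternative that tested them, leaving out single arrays aside. Only 307 of the 360 were tested when genes had to be above background on all 4 male arrays. A gene not tested was counted as keeping its call. Some calls were lost with 1 array left out. Normexp correction moved the differences of 106 of the 360 by over 1.5 times. Why counts depend on single arrays was not tested. Signal near background limits the low genes, for which only bounds or compressed differences can be given.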
